A study of Mus musculus with 4 samples.

Results

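The genes that build triglycerides and membrane phospholipids were followed in C2C12 myoblasts exposed to palmitate. The 37 genes were chosen by name, as the enzymes of these pathways, and found on the array through the RefSeq accessions of their probes. They had 48 of the 39429 gene probes, and 34 of the 37 genes had a probe bright enough to be tested.

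C2C12 is an established mouse line of satellite cells from thigh muscle, which divides as myoblasts and can fuse into myotubes. All cultures were proliferating myoblasts on day 3. The 4 palmitate cultures received palmitate at 0.1 mmol/l for 48 h in medium with 5% foetal bovine serum. The 4 control cultures were kept, according to the treatment protocol, in the same medium with the ethanol and the fatty acid-free albumin that carry palmitate. A label of the control cultures instead names a 10% serum medium (HS) and calls them untreated. Each of 4 two-colour arrays, all on 1 slide, held RNA from 1 control culture (cyanine-3) and 1 palmitate culture (cyanine-5). The dyes were never swapped, so the effect of palmitate and that of the dye cannot be told apart. All values come from a single line, and in RNA from whole cultures fewer expressing cells and less RNA per cell cannot be told apart.

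Palmitate is a saturated fatty acid that cells activate to palmitoyl-CoA and then burn, store or build into membranes. In the storage route, glycerol-3-phosphate is acylated to lysophosphatidate and then to phosphatidate, phosphatidate phosphatases (lipins) remove the phosphate, and the resulting diacylglycerol is acylated to triglyceride or joined to choline or ethanolamine. Phosphatidate that is activated with CTP instead becomes CDP-diacylglycerol, the precursor of cardiolipin in mitochondria. Remodelling enzymes then exchange the acyl chains of finished phospholipids. Skeletal muscle cells keep triglyceride in small lipid droplets, and saturated chains that are not esterified are known to stress them.

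Replicate 1 stood apart from the other arrays. Across all 24169 tested probes its log2 ratios correlated with those of the other arrays at -0.16 to 0.06, against 0.68 to 0.77 among replicates 2, 3 and 4. Over the 34 tested genes of the pathway, which share the array and its dyes, the same correlations were 0.21 to 0.67 and 0.42 to 0.82. From 57.6 to 64% of probes were well above background in the control channel, and from 61.9 to 70.7% in the palmitate channel. All 8 myoblast markers were tested, 7 of them above background in every control culture, Myod1 and Myf5 among them. The adipocyte markers Adipoq, Plin1, Lep and Cfd had no tested probe. Of the same list, Fabp4 was above background in every culture, and Cidec in all 4 palmitate and 0 control cultures. All 6 tested differentiated muscle, 3 tested fibroblast and 2 tested leukocyte markers were above background in every control culture. At an unadjusted p under 0.05 in limma, 10.8% of all tested probes were higher and 11.1% lower. At that p, 2 of 8 myoblast, 2 of 6 differentiated muscle and 1 of 3 fibroblast markers were higher. The called myoblast markers were Myod1 and Ncam1, and those of differentiated muscle were Myog and Myh3. Of the adipocyte and leukocyte markers, 0 of 2 and 0 of 2 differed. The fibroblast marker, Col3a1, averaged 0.78 ± 0.48 on the log2 ratio scale (SD, n = 4). Its part in the results was not tested.

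With all 4 arrays, no gene of the pathway passed the test. The lowest Benjamini-Hochberg adjusted p in limma, taken over all tested probes, was 0.118, and 0 of the 24169 probes (0%) passed at 0.05. At an unadjusted p under 0.05, 9 of the 34 tested genes (26.5%) were called, beside 21.9% of all tested probes. Of these, 6 were higher with palmitate (Agpat1, Agpat3, Agpat5, Ptdss1, Crls1 and Lclat1), beside 10.8% of probes, and 3 were lower (Chkb, Pcyt2 and Lpcat1), beside 11.1% of probes. The median log2 ratio of palmitate over control was -0.01 over the 34 genes and 0.01 over all tested probes, with 16 genes above 0 and 18 below. Only Agpat1 had a mean fold of at least 1.6. The share of genes called was near that of all probes.

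**Figure D1:**
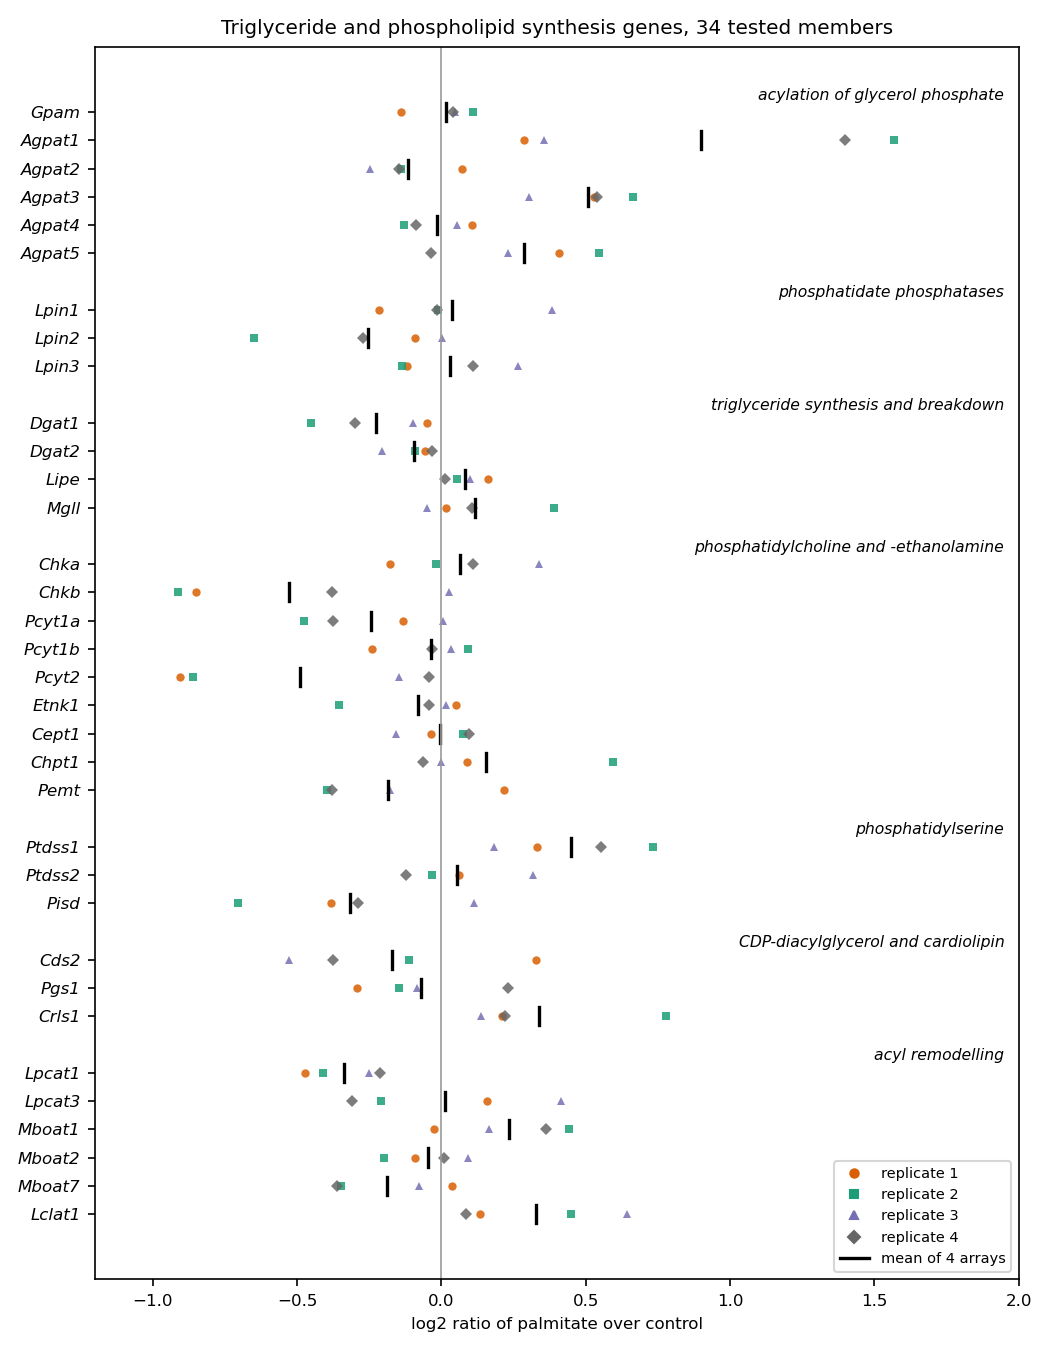
Palmitate over control, as a log2 ratio (x axis), for the brightest tested probe of each of 34 genes, grouped by step of the pathway. Each symbol is 1 array and the black bar is the mean of 4 arrays; Agpat1 reached 1.57 and 1.40 on replicates 2 and 4, and the means of the other genes lay between -0.53 and 0.51.

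Without replicate 1, the picture of calls changed. Then 13 of the 34 genes (38.2%) had an unadjusted p under 0.05, beside 34.4% of all tested probes. Of these, 6 were higher, beside 17.4% of probes, and 7 lower, beside 17%. At an adjusted p under 0.05 from limma, 3 genes (8.82%) passed, beside 18% of probes. These were Agpat1, Agpat3 and Ptdss1, all higher with palmitate, beside 8.78% of probes that passed as higher. Leaving out replicate 2, 3 or 4 in its place gave 0 such genes, beside 0 of all 24169 tested probes (0%) in each case.

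**Figure D2:**
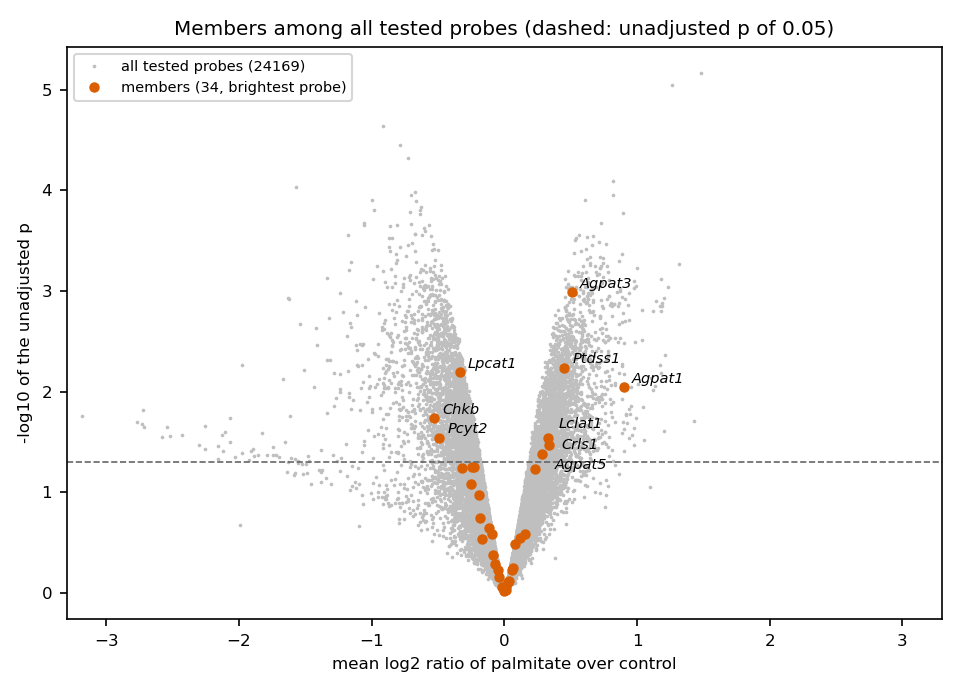
Mean log2 ratio (palmitate over control, x axis) against -log10 of the unadjusted limma p (y axis), n = 4 arrays, for all 24169 tested probes in grey and the 34 genes of the pathway in orange. The dashed line marks an unadjusted p of 0.05, and 9 genes, all named, lie above it.

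The acylations of glycerol phosphate come first in the route. Gpam, the mitochondrial glycerol-3-phosphate acyltransferase that commits acyl-CoA to glycerolipids, had a log2 ratio of 0.02 ± 0.11 (SD, n = 4). Its probe was above background in all 4 palmitate cultures and in 2 of 4 control cultures. The next step is made by the 1-acylglycerol-3-phosphate acyltransferases (Agpat), which turn lysophosphatidate into phosphatidate. Of these, 3 of 5 had an unadjusted p under 0.05 and all 3 were higher, beside 10.8% of probes called as higher, while Agpat2 and Agpat4 had mean log2 ratios of -0.12 and -0.01.

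Agpat1, a lysophosphatidate acyltransferase of the endoplasmic reticulum, had log2 signals of 12.06, 11.96, 12.25 and 12.13 in control replicates 1 to 4. In the palmitate cultures they were 12.34, 13.53, 12.60 and 13.52. All palmitate signals lay above all control signals, and replicates 2 and 4 were far above replicates 1 and 3. The mean log2 ratio was 0.90 ± 0.68 (SD, n = 4), a fold of 1.87, with an adjusted p of 0.133 in limma. Without replicate 1 it was 1.11 (adjusted p = 0.0194), and the lowest value with any array left out was 0.68 (without replicate 2, adjusted p = 0.475).

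Agpat3 encodes another acyltransferase of this family, found in the endoplasmic reticulum and Golgi. Its control log2 signals were 12.96, 12.96, 13.14 and 12.97, and its palmitate log2 signals were 13.49, 13.63, 13.44 and 13.51. The groups did not overlap, and the 4 arrays gave similar ratios of 0.53, 0.66, 0.30 and 0.54. With a mean of 0.51 ± 0.15 (SD, n = 4), Agpat3 had the lowest p of the pathway (unadjusted p = 0.00102, adjusted p = 0.118 in limma). The adjusted p was 0.0209 without replicate 1, 0.440 without replicate 2, and 0.0483 when the control and palmitate channels were treated as unpaired.

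Agpat5, a mitochondrial member of the family, had log2 ratios of 0.41, 0.55, 0.23 and -0.04. Replicate 4 was on the other side of 0, and the control and palmitate signals overlapped. Its mean was 0.29 ± 0.25 (SD, n = 4, adjusted p = 0.212 in limma). Leaving out replicate 1, 2 or 3 lost its call at an unadjusted p under 0.05, and the mean ranged from 0.20 (without replicate 2) to 0.40 (without replicate 4). The 3 genes thus differed in how evenly the arrays gave their ratio, Agpat3 with the smallest and Agpat1 with the largest SD.

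**Figure D3:**
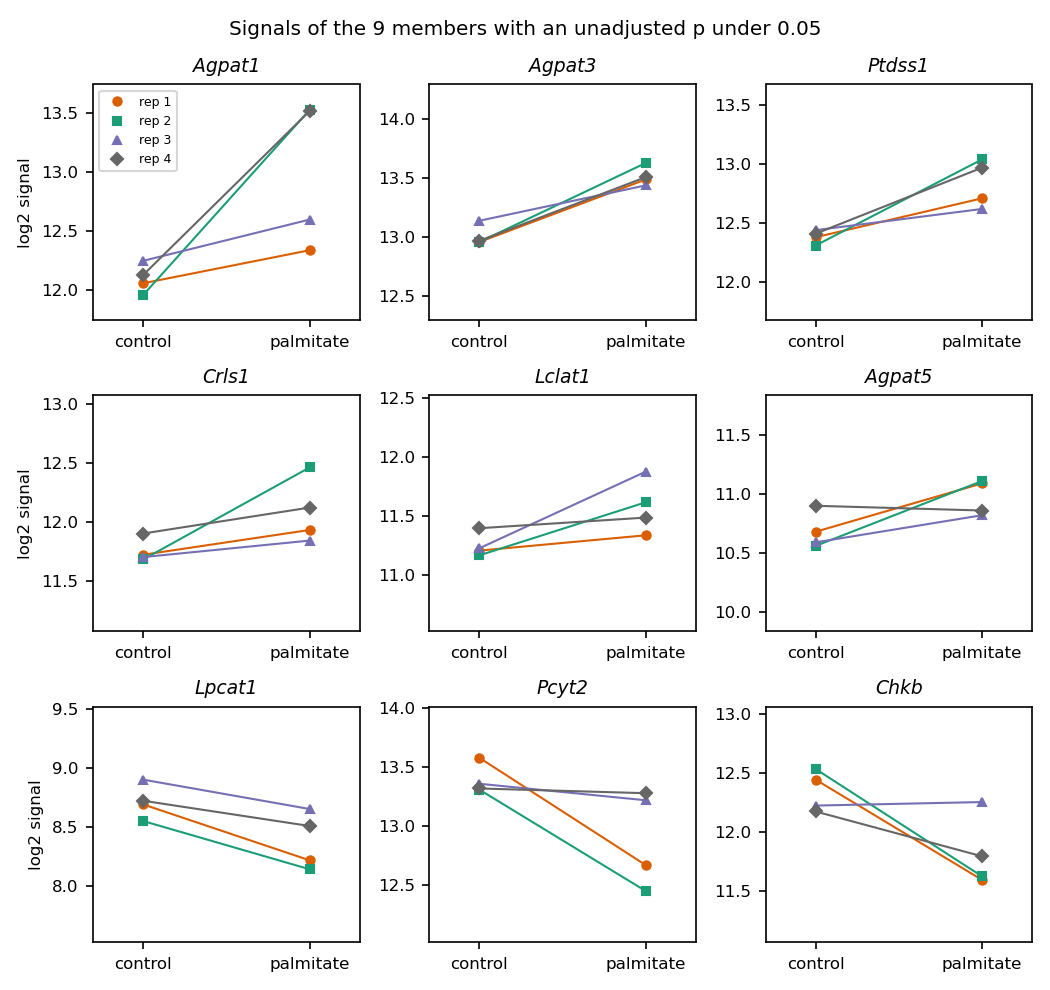
Log2 signal (y axis, a span of 2 in each panel) in the control and palmitate channels for the 9 genes with an unadjusted p under 0.05; a line joins the 2 cultures of 1 array. The palmitate signals of Agpat1, Agpat3 and Ptdss1 all lie above the control signals and those of Pcyt2 all below, while the other 5 overlap; signals were scaled between arrays and cannot be compared between genes.

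The sequences just before the annotated starts of Agpat1 and Agpat3 are shown because these were the enzymes of phosphatidate synthesis with the lowest p. Each is the 250 bases upstream of the start in RefSeq (GRCm38.p6), written 5′ to 3′ on the gene's strand. Agpat1 is at chr17:34605611-34605860 on the + strand (the more upstream of 2 listed starts), and Agpat3 at chr10:78351701-78351950 on the - strand. Capitals mark a GC box (GGGCGG) or a CCAAT box on either strand, which read CCGCCC and ATTGG on the reverse.
Agpat1: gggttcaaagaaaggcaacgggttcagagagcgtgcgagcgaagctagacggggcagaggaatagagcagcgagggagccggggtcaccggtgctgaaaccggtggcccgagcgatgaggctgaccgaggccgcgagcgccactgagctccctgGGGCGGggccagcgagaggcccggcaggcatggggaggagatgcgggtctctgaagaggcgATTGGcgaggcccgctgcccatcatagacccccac
Agpat3: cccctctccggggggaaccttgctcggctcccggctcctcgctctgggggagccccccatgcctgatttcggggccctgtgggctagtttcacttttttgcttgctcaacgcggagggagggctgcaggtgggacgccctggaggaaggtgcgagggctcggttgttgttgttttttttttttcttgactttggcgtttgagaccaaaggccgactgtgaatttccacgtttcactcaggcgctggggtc
The Agpat1 window held 1 GC box and 1 CCAAT box, and the Agpat3 window held neither.

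None of the lipins passed the test. Lpin1, the main phosphatidate phosphatase of muscle, had log2 ratios of -0.21, -0.01, 0.38 and -0.01 and a mean of 0.04 ± 0.25 (SD, n = 4). Lpin2, a lipin known for its role in liver and in inflammation, had a mean of -0.25 ± 0.29 (SD, n = 4, unadjusted p = 0.0823 in limma), with -0.65 on replicate 2 and between -0.27 and 0.0031 on the others. For Lpin3 the mean was 0.03 ± 0.19 (SD, n = 4). The signs of the 4 arrays were mixed for all 3.

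At the last step of triglyceride synthesis, both diacylglycerol acyltransferases had negative log2 ratios on every array. Dgat1, an enzyme of the endoplasmic reticulum, gave -0.05, -0.45, -0.10 and -0.30, a mean of -0.23 ± 0.19 (SD, n = 4, unadjusted p = 0.0564, adjusted p = 0.241 in limma). Dgat2, which is unrelated in sequence and also found at lipid droplets, gave -0.06, -0.09, -0.20 and -0.03. Its mean was -0.10 ± 0.08 (SD, n = 4, adjusted p = 0.494 in limma), and although small, the 4 palmitate log2 signals of 9.715 to 9.868 lay below the 4 control log2 signals of 9.872 to 9.922. A same sign on all 4 arrays was found for 10 of the 34 genes, beside 30.3% of probes, with 6 higher (15.8% of probes) and 4 lower (14.6% of probes). Under median centring in place of loess, Dgat2 was 0.01 relative to the median of all probes, so its direction depended on the dye normalization.

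The genes of triglyceride breakdown in the list did not pass either. Lipe encodes hormone-sensitive lipase, and its log2 ratios of 0.16, 0.05, 0.10 and 0.01 averaged 0.08 ± 0.06 (SD, n = 4). The probe was above background in 1 of 4 control cultures, and the ratio was -0.22 relative to all probes under median centring. Mgll, monoglyceride lipase, had a mean of 0.12 ± 0.19 (SD, n = 4), and its other tested probes had means of 0.08 and 0.01.

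In the synthesis of phosphatidylcholine and phosphatidylethanolamine, 7 of 9 tested genes had a mean below 0, and 2 (22.2%) had an unadjusted p under 0.05, both lower, beside 21.9% of probes called and 11.1% called as lower. The branch median was -0.08, with -0.13, -0.35, 0.01 and -0.04 on replicates 1 to 4. Over all tested probes, 11612 of 24169 had a mean below 0.

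Chkb, the choline and ethanolamine kinase of the first step, whose loss causes muscular dystrophy in mice, had control log2 signals of 12.44, 12.53, 12.22 and 12.17. With palmitate they were 11.59, 11.62, 12.25 and 11.79. Replicates 1, 2 and 4 were lower with palmitate, replicate 3 was not, and the groups overlapped. The mean log2 ratio was -0.53 ± 0.44 (SD, n = 4, unadjusted p = 0.0184, adjusted p = 0.159 in limma). With 1 array left out it ranged from -0.40 (without replicate 2, unadjusted p = 0.0769 in limma, which lost the call) to -0.71 (without replicate 3).

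The promoter of Chkb is given as that of the gene with the most negative mean ratio of the pathway. It lies at chr15:89429928-89430177 on the - strand (GRCm38.p6, RefSeq), with the same marks.
Chkb: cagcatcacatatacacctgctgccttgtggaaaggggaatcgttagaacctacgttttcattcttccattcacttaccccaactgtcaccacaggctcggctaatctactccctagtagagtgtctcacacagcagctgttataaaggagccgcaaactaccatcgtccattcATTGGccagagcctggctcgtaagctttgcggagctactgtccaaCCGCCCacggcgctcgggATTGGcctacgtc
This window held 1 GC box and 2 CCAAT boxes.

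Chka, the other choline kinase, had a mean log2 ratio of 0.06 ± 0.22 (SD, n = 4). Its further probes had means of -0.07 and -0.17, so the direction differed between probes. On every array Chka had a higher log2 ratio than Chkb, by 0.67, 0.90, 0.31 and 0.49. The difference of 0.59 ± 0.25 (SD, n = 4) had an exact two-sided sign-flip p of 0.125, the smallest that 4 arrays allow. This pair was chosen after its values were seen.

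Pcyt2, the rate-limiting cytidylyl transferase of phosphatidylethanolamine synthesis, had log2 ratios of -0.91, -0.86, -0.15 and -0.04. All palmitate signals lay below all control signals, with replicates 1 and 2 far lower than replicates 3 and 4. The mean was -0.49 ± 0.46 (SD, n = 4, unadjusted p = 0.0285, adjusted p = 0.185 in limma). It was -0.35 without replicate 1 (unadjusted p = 0.0689 in limma) and -0.36 without replicate 2 (unadjusted p = 0.114 in limma), so leaving out either array lost the call.

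Pcyt1a, the main cytidylyl transferase of phosphatidylcholine synthesis, had a mean log2 ratio of -0.25 ± 0.22 (SD, n = 4, unadjusted p = 0.0562 in limma), with -0.13, -0.48, 0.01 and -0.38 on the 4 arrays. Its isoenzyme Pcyt1b averaged -0.04 ± 0.14 (SD, n = 4), and the ethanolamine kinase Etnk1 averaged -0.08 ± 0.19 (SD, n = 4). The phosphotransferases that join the head group to diacylglycerol were close to 0 in Cept1 (-0.01 ± 0.12, SD, n = 4) and 0.16 ± 0.30 (SD, n = 4) in Chpt1. A dimmer probe of Chpt1 had a mean of 0.34 ± 0.24 (SD, n = 4, unadjusted p = 0.0214 in limma). All of that probe's ratios were above 0, from 0.15 to 0.68, whereas the brighter probe was above 0 on 2 arrays.

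Pemt methylates phosphatidylethanolamine to phosphatidylcholine, a route best known from liver. Its log2 ratios were 0.22, -0.40, -0.18 and -0.38, and replicate 1 was the only array above 0. The mean was -0.18 ± 0.28 (SD, n = 4) with all arrays -0.32 without replicate 1 (adjusted p = 0.0580 in limma) and -0.11 without replicate 2. A dimmer probe gave -0.01, -0.48, -0.47 and -0.32 (unadjusted p = 0.0203 in limma), and the third averaged -0.07.

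**Figure D4:**
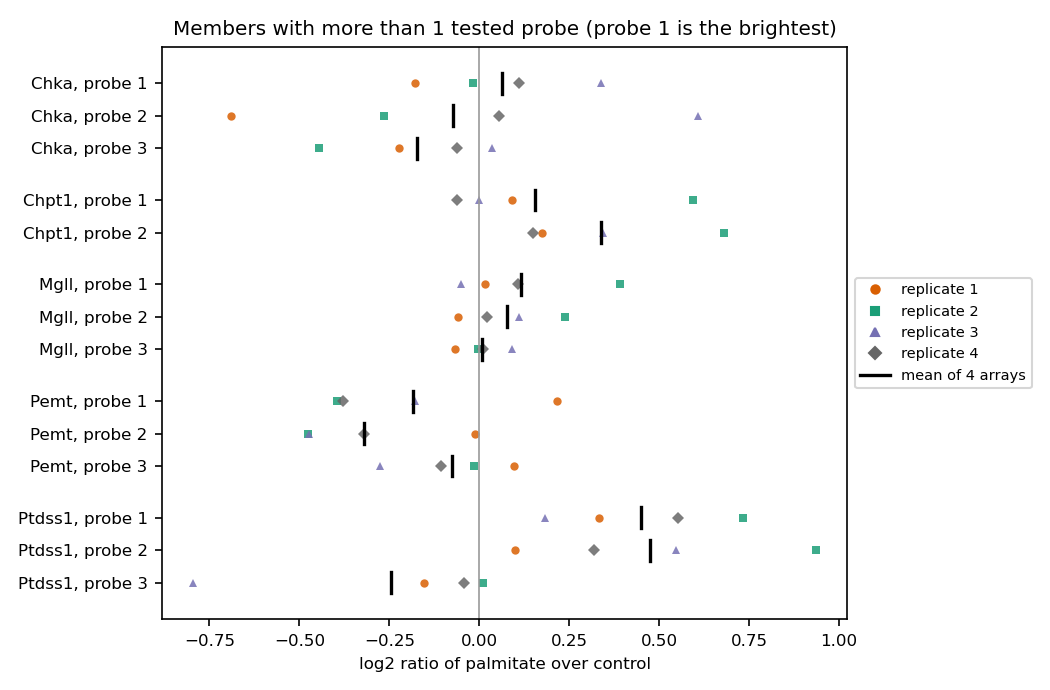
Palmitate over control, as a log2 ratio (x axis), for the 5 genes with more than 1 tested probe, each symbol 1 array and each bar the mean of 4 arrays. The third probe of Ptdss1 (mean -0.24) lies opposite to the others (0.45 and 0.48), and the probes of Chka lie on both sides of 0.

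Phosphatidylserine is made by exchange of the head group. Ptdss1, the synthase that starts from phosphatidylcholine, had control log2 signals of 12.38, 12.31, 12.44 and 12.41 and palmitate log2 signals of 12.71, 13.04, 12.62 and 12.97. The groups did not overlap, and replicates 2 and 4 had the highest palmitate signals, as they did for Agpat1. The mean log2 ratio was 0.45 ± 0.24 (SD, n = 4, unadjusted p = 0.00575, adjusted p = 0.125 in limma). Without replicate 1 it was 0.49 (adjusted p = 0.0365), and without replicate 2 it was 0.36 (adjusted p = 0.455).

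The probes of Ptdss1 disagreed. A dimmer probe had log2 ratios of 0.10, 0.94, 0.55 and 0.32 (unadjusted p = 0.0145 in limma), whereas the third had -0.15, 0.01, -0.79 and -0.04 (unadjusted p = 0.145 in limma). All 3 carry the same RefSeq accession, and which transcript ends they detect was not analysed here.

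Ptdss2, the synthase that starts from phosphatidylethanolamine, had a mean of 0.06 ± 0.19 (SD, n = 4), with signs mixed over the arrays. Pisd, the mitochondrial decarboxylase that turns phosphatidylserine into phosphatidylethanolamine, had log2 ratios of -0.38, -0.71, 0.11 and -0.29. Its mean was -0.32 ± 0.34 (SD, n = 4, unadjusted p = 0.0575 in limma).

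In the branch from CDP-diacylglycerol to cardiolipin, 1 of 3 tested genes had an unadjusted p under 0.05, beside 21.9% of probes. Crls1, cardiolipin synthase, had log2 ratios of 0.21, 0.78, 0.14 and 0.22. Every array was above 0, and replicate 2 was well above the other arrays. The mean was 0.34 ± 0.30 (SD, n = 4, unadjusted p = 0.0340, adjusted p = 0.197 in limma), and 0.19 without replicate 2. Its call at an unadjusted p under 0.05 was lost without replicate 2 or 4 (unadjusted p = 0.0894 and 0.0624 in limma). Pgs1, which makes the phosphatidylglycerol phosphate before it, averaged -0.07 ± 0.22 (SD, n = 4).

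Cds2, a CDP-diacylglycerol synthase, gave 0.33 on replicate 1 and -0.11, -0.53 and -0.37 on the others. Its mean was -0.17 ± 0.37 (SD, n = 4), and -0.34 without replicate 1 (unadjusted p = 0.0167, adjusted p = 0.0723 in limma). Without replicate 3 it was -0.05 and without replicate 4 -0.10 (unadjusted p = 0.752 and 0.592 in limma). Cds1, its isoenzyme, was not well above background on any array in either channel and was not tested.

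Among the enzymes that remodel acyl chains, 2 of 6 tested genes had an unadjusted p under 0.05, in opposite directions, beside 10.8% of probes called as higher and 11.1% as lower. Lpcat1, a lysophosphatidylcholine acyltransferase known for placing palmitate in lung surfactant, had log2 ratios of -0.47, -0.41, -0.25 and -0.21. All 4 arrays were below 0, although the control and palmitate signals overlapped because the arrays differed in level. The mean was -0.34 ± 0.12 (SD, n = 4, unadjusted p = 0.00639, adjusted p = 0.128 in limma). Lpcat1 was a dim probe, with a mean log2 signal of 8.72 in control cultures, and its mean log2 ratio was -0.50 with no background correction and -0.70 from the processed signals, which differ in both background and dye correction.

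Lclat1, an acyltransferase that acts on lysocardiolipin and on phosphatidylinositol, had log2 ratios of 0.13, 0.45, 0.64 and 0.09. Here replicate 3 was the highest, unlike Agpat1, Ptdss1 and Crls1. The mean was 0.33 ± 0.27 (SD, n = 4, unadjusted p = 0.0288, adjusted p = 0.186 in limma) and 0.39 without replicate 1 (adjusted p = 0.0685). The call was lost without replicate 2, at 0.29 (unadjusted p = 0.0988 in limma), and without replicate 3, at 0.22 (unadjusted p = 0.115 in limma).

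Promoters of the remodelling enzymes are shown for this pair, which had opposite signs. Lpcat1 is at chr13:73466981-73467230 and Lclat1 at chr17:73107735-73107984, both on the + strand (GRCm38.p6, RefSeq).
Lpcat1: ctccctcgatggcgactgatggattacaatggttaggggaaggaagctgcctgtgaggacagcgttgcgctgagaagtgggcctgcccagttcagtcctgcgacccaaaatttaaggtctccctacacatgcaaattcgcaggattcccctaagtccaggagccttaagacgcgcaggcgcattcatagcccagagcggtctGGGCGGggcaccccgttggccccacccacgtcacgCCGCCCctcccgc
Lclat1: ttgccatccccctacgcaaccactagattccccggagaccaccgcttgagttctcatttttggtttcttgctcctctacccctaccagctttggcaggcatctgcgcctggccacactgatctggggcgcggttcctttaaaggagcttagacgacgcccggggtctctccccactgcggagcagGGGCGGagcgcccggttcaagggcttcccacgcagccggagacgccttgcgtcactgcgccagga
The Lpcat1 window held 2 GC boxes and the Lclat1 window 1, and neither held a CCAAT box in these 250 bases.

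The other remodelling genes did not pass. Mboat1, a lysophosphatidylserine and lysophosphatidylethanolamine acyltransferase, had a mean of 0.24 ± 0.21 (SD, n = 4, unadjusted p = 0.0587 in limma) and was above 0 on 3 arrays. Mboat7, which places arachidonate in phosphatidylinositol, averaged -0.19 ± 0.20 (SD, n = 4). Lpcat3, which places polyunsaturated chains in phosphatidylcholine, averaged 0.01 ± 0.34 (SD, n = 4), with arrays from -0.31 to 0.42. For Mboat2 the mean was -0.05 ± 0.13 (SD, n = 4), and its probe was above background in 2 of 4 control cultures. Lpcat2 and Lpcat4 were well above background on 2 of 4 palmitate arrays each, and on 1 and 0 control arrays, and were not tested.

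**Figure D5:**
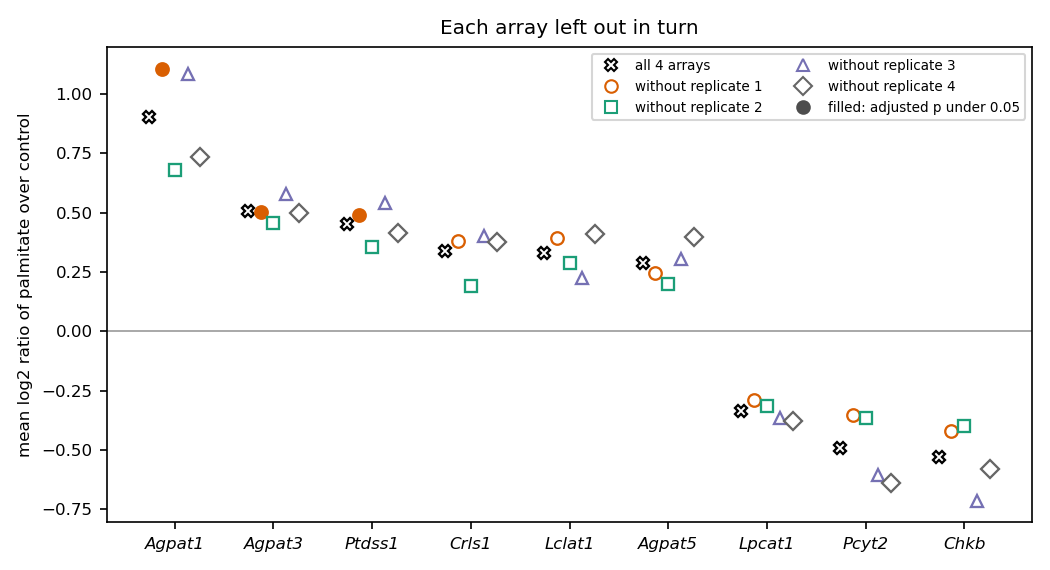
Mean log2 ratio of palmitate over control (y axis) of the 9 genes with an unadjusted p under 0.05, with all 4 arrays and with each array left out; filled symbols have an adjusted limma p under 0.05. The sign of each gene is the same in every case, and only the values of Agpat1, Agpat3 and Ptdss1 without replicate 1 are filled.

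Isoenzymes of the same step were set against each other on each array. The 8 pairs were chosen after their values were seen. Besides Chka and Chkb, the difference had 1 sign on all 4 arrays for Agpat1 less Agpat2, at 1.02 ± 0.72 (SD, n = 4), and for Mboat1 less Mboat2, at 0.28 ± 0.27 (SD, n = 4). Each of these 3 had an exact sign-flip p of 0.125, and 0.333 after Benjamini-Hochberg adjustment over 8 pairs. Ptdss1 less Ptdss2 was 0.40 ± 0.41 (SD, n = 4), above 0 on 3 arrays (exact p = 0.25). The other pairs were Lpin1 less Lpin2, Dgat1 less Dgat2, Pcyt1a less Pcyt1b and Chpt1 less Cept1, with mean differences between -0.21 and 0.29 (exact p from 0.25 to 0.5).

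The arrays did not weigh equally on these genes, nor on all tested probes. Replicate 2 held the largest absolute log2 ratio for 17 of the 34 genes (50%), beside 41.7% of all tested probes. Replicate 4 held it for 1 gene, Mboat7, and replicate 3 for 10. Over the 34 genes the SD of the log2 ratios was 0.31, 0.52, 0.23 and 0.35 on replicates 1 to 4. Over all tested probes it was 0.30, 0.50, 0.37 and 0.35. The control and palmitate signals did not overlap for 5 genes (14.7%), beside 12.2% of probes, with Agpat1, Agpat3 and Ptdss1 above (beside 5.48% of probes) and Dgat2 and Pcyt2 below (beside 6.73%).

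The promoters as a whole were described by the same short motifs. RefSeq windows from 250 bases before to 50 after the start were found for 32 of the 37 genes, 48 windows in all. A GC box was present in 64.6% of these and in 35.7% of all 32851 windows. Windows were counted, so a gene with several starts counts more than once, and all windows include those of genes without a tested probe. The CCAAT box was present in 39.6% and 37.4%, and the E-box CACGTG in 10.4% and 7.15%. Crls1 was among the 5 genes with an E-box. The nuclear receptor half-site AGGTCA was present in 8.33% and 16.3%. Matches on both strands were counted, and a match is a run of letters, not a bound site. The genes without a window here were Agpat5, Dgat1, Dgat2, Pcyt2 and Ptdss1.

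Other genes around the pathway were listed alongside. Of 79 such genes, 69 were tested. At an unadjusted p under 0.05, palmitate gave 7 higher and 8 lower values (21.7%, beside 21.9% of probes), and the median log2 ratio was -0.01. None had an adjusted p under 0.05 in limma. No gene was called in the lists of glycerol phosphate supply and of the other glyceride hydrolases.

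Soat1, which esterifies cholesterol, had log2 ratios of 0.61, 0.89, 0.50 and 0.13 and a mean of 0.53 ± 0.31 (SD, n = 4, adjusted p = 0.125 in limma). Slc44a2, a choline transporter, had 0.32 ± 0.12 (SD, n = 4, adjusted p = 0.130), with every array above 0. In the same direction were Hadha, the mitochondrial trifunctional protein subunit that also acylates monolysocardiolipin, at 0.24 ± 0.18 (SD, n = 4), and the nuclear receptor Pparg at 0.29 ± 0.19 (SD, n = 4). Triap1, which helps carry phosphatidate to the inner mitochondrial membrane, had a mean of -0.48 ± 0.20 (SD, n = 4, adjusted p = 0.118). The phospholipases Pla2g15, of lysosomes, and Pla2g4a, which releases arachidonate, had means of -0.45 ± 0.22 and -0.28 ± 0.13 (SD, n = 4 each). Plpp2, a lipid phosphate phosphatase, and Cnep1r1, a subunit of the phosphatase that activates lipins, averaged -0.36 ± 0.21 and -0.37 ± 0.20 (SD, n = 4 each). All 9 had the same sign on all 4 arrays, which the rule for naming them required.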

How the data were processed

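The authors scanned 4 two-colour arrays and read them with Agilent Feature Extraction 10.7.3.1. Per the file headers, the median signals of spots and of their local background are uncorrected intensity values. The deposited processed signals are intensity values from which the software had subtracted background and removed a dye bias, and the deposited log10 ratio of each spot was not tested. A separate table deposited by the authors gives log2 ratios (palmitate over control). Its scale and direction were checked against the processed signals, and its column medians were -0.07, -0.12, -0.10 and -0.16 on replicates 1 to 4.

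Background was corrected by normexp (offset 50) on the median signals, and a loess fit on every array removed the dye trend in limma 3.58.1 (R 4.3.3, statmod 1.5.0), with control and outlier spots left out. Spots of a probe were averaged. Testing required 1 channel, control or palmitate, to be well above background on all 4 arrays, as was so for 24169 of 39429 probes. No spot of the pathway was saturated. The mean log2 ratio of each probe was set against 0 in limma's moderated test, with Benjamini-Hochberg adjustment over all tested probes. A gene is represented by its brightest tested probe, and a higher or lower call means palmitate over control. For signals by culture, the mean signals were scaled between arrays (Aquantile). Control and palmitate cultures of 1 number shared an array, so the array is the pair. The labels call them biological replicates, and p-values measure the spread between 4 arrays on 1 slide. The lowest two-sided p of an exact sign-flip test with 4 arrays is 0.125. The number of arrays limits the precision.

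The pathway genes, the lists of other genes and the markers were chosen with earlier results of these data known. All pathway genes are named, and from each list of other genes up to 2 with the lowest unadjusted p under 0.05 and 1 sign on all arrays. One listed gene, Tafazzin, had no matching probe name. Alternatives changed the background correction, dye normalization, filters, source of the values, test, pairing, variance model, choice of probe and replicates. Simulated log2 ratios with known changes were put through the limma test and its adjustment only. The earlier steps were not run on simulated data. Promoter windows and their coordinates come from RefSeq (GRCm38.p6), and gene names from RefSeq accessions.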

Additional observations from a re-analysis of the deposited data

Results flagged for a closer look

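The log2 ratio of Crls1 on replicate 2 was 0.7788, while the other arrays lay between 0.1385 and 0.2211. The gap to the nearest array was 0.871 of the whole range, which is wider than Dixon's test allows for 4 samples. It was the only such value among 34 genes examined, and chance gives about 1 in 20 groups. Without replicate 2, the mean log2 ratio of Crls1 was 0.19 (unadjusted p = 0.0894 in limma).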

How the results depend on the processing

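The log2 ratios of the 9 genes with an unadjusted p under 0.05 kept their sign under every alternative that gave them a value, taken relative to the median of all probes where no loess was used. Lpcat1 was not tested under the limit on the coefficient of variation. The call of Ptdss1 depended on the choice of probe. With the mean over the probes of a gene, its log2 ratio was 0.23 (unadjusted p = 0.0866 in limma), which lost the call. Counts of calls did not hold. With no dye normalization, whose all-probe median was 0.99, 20322 probes were higher and 26 lower at an adjusted p under 0.05 and a fold of 1.6. Then 29 genes of the pathway passed that p as higher, with no fold asked, beside 84.1% of probes. An unadjusted p gave 30 higher and 0 lower genes, beside 86.8% and 0.116% of probes. The pathway median was 0.98. Median centring gave 3 genes higher and 0 lower at an unadjusted p, beside 3.31% and 0.182% of probes. Its pathway median was 0.17, beside 0.18 for all probes. At an adjusted p under 0.05 and a fold of 1.6, the limit on the coefficient of variation gave 140 probes higher and 199 lower. Array weights gave 304 and 450. With no fold asked, each gave 3 higher genes at that p, Agpat1, Agpat3 and Ptdss1. At that p alone, 4.02% of probes were higher under the limit and 5.22% with array weights. Array weights gave 8 lower genes at an unadjusted p, beside 15.5% of probes. The limit on the coefficient of variation left 24 genes tested, chosen by their spread over these same arrays. With the fold, processed signals and the deposited table each gave 13 higher probes. The fit on 1 probe per gene gave 2 higher, and the methods' t-test gave 1 higher and 2 lower (10 with no fold asked). No filter gave 7 higher and 5 lower genes at an unadjusted p, beside 8.04% and 8.11% of probes.

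Treating the channels as unpaired (no replicate block) gave 15 higher and 11 lower probes at the adjusted p and the fold. At the adjusted p alone, 1 gene (Agpat3) was higher, beside 0.132% of probes. An unadjusted p gave 6 higher and 6 lower genes, beside 9.59% and 10.9% of probes. Leaving out each array gave 0 to 555 higher and 0 to 753 lower probes at the adjusted p and the fold. With no fold asked, the adjusted p gave 0 to 3 higher genes, beside 0 to 8.78% of probes. It gave 0 lower genes, beside 0 to 9.22% of probes. Without replicate 1, the adjusted p alone gave 2123 higher and 2229 lower probes. At an unadjusted p, 3 to 6 genes were higher and 1 to 7 lower, beside 4.56 to 17.4% and 5.33 to 17% of probes. The pathway median was -0.06 to 0.01. The highest counts of probes and of adjusted calls were those without replicate 1.

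After seeing the data, replicate 1 was also left out of other settings. With median centring, an unadjusted p gave 1 higher and 0 lower gene, beside 2.51% and 0.898% of probes. The pathway median was 0.23, beside 0.19 for all probes. From the processed signals, 1878 probes were higher and 1574 lower at an adjusted p under 0.05 and a fold of 1.6 (14.3% of probes). At the adjusted p alone, 29.7% of probes passed. Then 4 genes were higher (Gpam, Agpat1, Agpat3 and Ptdss1), beside 16.5% of probes. The 2 lower genes were Cds2 and Lpcat1, beside 13.2% of probes. An unadjusted p gave 8 higher and 7 lower genes, beside 23.9% and 19.5% of probes. Gpam then had a log2 ratio of 0.70, against 0.02 in the report. The differences between isoenzymes kept their sign under every alternative in which both genes were tested. The causes of these changes were not tested. The probes of Gpam, Lipe and Mboat2 were above background in 2, 1 and 2 of 4 control cultures, and in all 4 palmitate cultures. That of Lpcat1 was above background in every culture.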
